A study of Mus musculus with 6 samples.

Results

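AP-1 is the family of basic leucine zipper (bZIP) transcription factors built from pairs of Fos and Jun proteins. In 6 RNA-seq libraries of isoproterenol-stimulated white adipocytes, all 9 measured genes of the AP-1 factors and their relatives Atf3 and Maff were lower on average in cells in which deletion of Dicer1 had been induced. With all 6 libraries, 1 of the 9 passed the test: Atf3 fell to 0.547 of its control level. The 9 genes were taken as a named list (Fos, Fosb, Fosl1, Fosl2, Jun, Junb, Jund, Atf3 and Maff), chosen with earlier results of these data known. All 9 were found among the 13734 genes of the deposited table, where Entrez gene IDs were matched to mouse symbols. All 9 were also among the 10054 genes tested, with at least 1 CPM (reads scaled to library size) in every library.

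The cells were an immortalized mouse white subcutaneous preadipocyte line, Dicer1 flox/flox with Cre-ERT2, a Cre recombinase that 4-hydroxytamoxifen (4-OHT) activates, and they had been differentiated to adipocytes. On day 6 they received 10 µM 4-OHT for 48 h (DICER_KO, 3 libraries) or the ethanol vehicle (control, 3 libraries), and all then received isoproterenol, a beta-adrenergic agonist, at 10 µM for 6 h. Both groups carry the floxed alleles and the Cre, so effects of 4-OHT and of the deletion cannot be told apart. No unstimulated library was analysed here, so the levels are those after stimulation and an induction by isoproterenol was not measured. The titles name the controls WT control. All libraries come from 1 line. Their titles call them biological replicates but do not say whether these were separate differentiations. The p-values therefore reflect only how much these libraries vary, which may still be technical variation. In bulk RNA, fewer cells of a type and less RNA per cell cannot be told apart.

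Fos and Jun proteins bind DNA as dimers: a Jun protein can pair with itself or with a Fos protein, whereas Fos proteins need a Jun partner. Several of these genes are immediate-early genes, transcribed within minutes of a signal through the mitogen-activated protein kinases (MAPK) or cAMP and CREB, and their mRNAs decay fast. Atf3 is a stress- and cAMP-induced bZIP factor that can pair with Jun proteins and often represses transcription, and Maff is a small Maf protein without an activation domain. Dicer1 encodes an RNase needed to make most microRNAs.

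The table held 13569034 to 30268077 reads per library. Dicer1 itself fell, from 6.12 ± 0.03 to 5.46 ± 0.03 log2 CPM (SD, n = 3 per group; limma adjusted p = 0.015), although the adjusted p was 0.0568 to 0.147 when any 1 library other than DICER_KO replicate 3 was left out. DICER_KO replicate 3 stood apart: its root-mean-square log2 distance from the rest of its group was 0.455, against 0.287 and 0.313 for the other DICER_KO libraries and 0.201 to 0.26 for controls. It also carried less of the mature adipocyte markers, with 14 marker genes summing to 3810 CPM, against 12500 and 12300 CPM in DICER_KO replicates 1 and 2 and 7670 to 9610 CPM in controls. Results for the AP-1 genes are therefore given with and without it. The part that these markers play in the results was not tested.

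The 9 differences ran from -0.87 to -0.25 on the log2 CPM scale, with a median of -0.39, against a median of 0.02 over all genes tested. One gene, Atf3, was among the 29 of 10054 genes (0.288%) that fell at an adjusted p below 0.05 in limma. An unadjusted p below 0.05 was found for 7 of the 9 members and for 1593 of the 10054 genes. A difference below 0 was found for 9 of 9 members and for 4750 of all genes tested (47.2%). Over the 6 libraries the 9 moved together, with pairwise Pearson r of 0.72 to 0.99 (median 0.91). They are therefore not 9 separate observations. In 6 members every DICER_KO library lay below every control, as it did for 986 genes tested (9.81%). Fosb, Fosl1 and Maff overlapped between the groups. Without DICER_KO replicate 3 all 9 members fell, in a fit in which 726 genes tested (7.22%) fell, and the members' median was -0.43. That library was the highest of its group in 8 of the 9 genes, so leaving it out lowers their DICER_KO means. Leaving out any other single library left 0 or 1 member past the threshold. The values without DICER_KO replicate 3 given below for single genes share this limit.

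**Figure D1:**
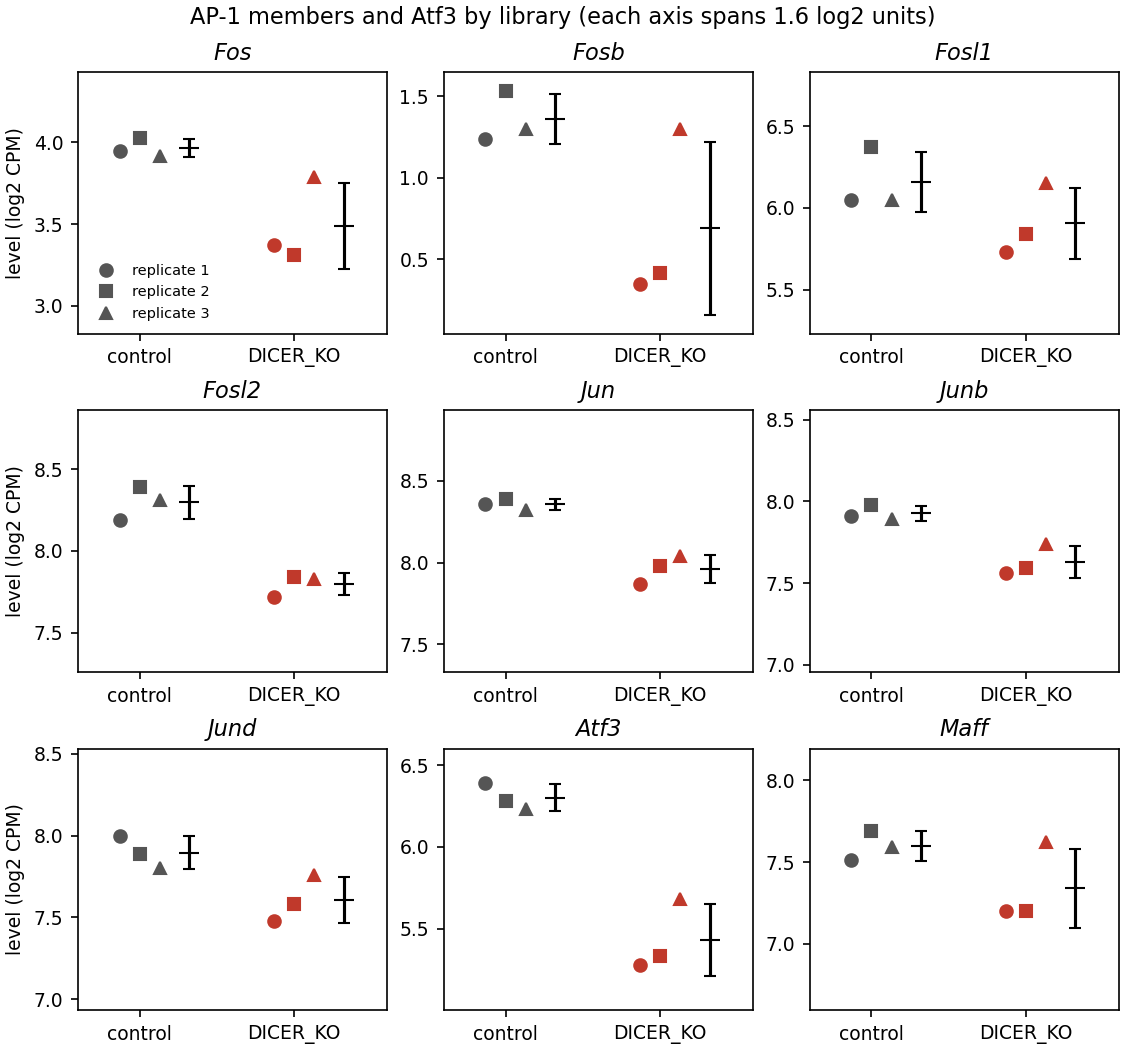
Level of each of the 9 genes in log2 CPM in each of the 3 control and 3 DICER_KO libraries; points are libraries, horizontal marks group means and error bars SD (n = 3). Atf3 reads 6.23 to 6.39 in controls and 5.28 to 5.68 in DICER_KO, and in 8 of 9 genes the highest DICER_KO library is replicate 3.

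**Figure D2:**
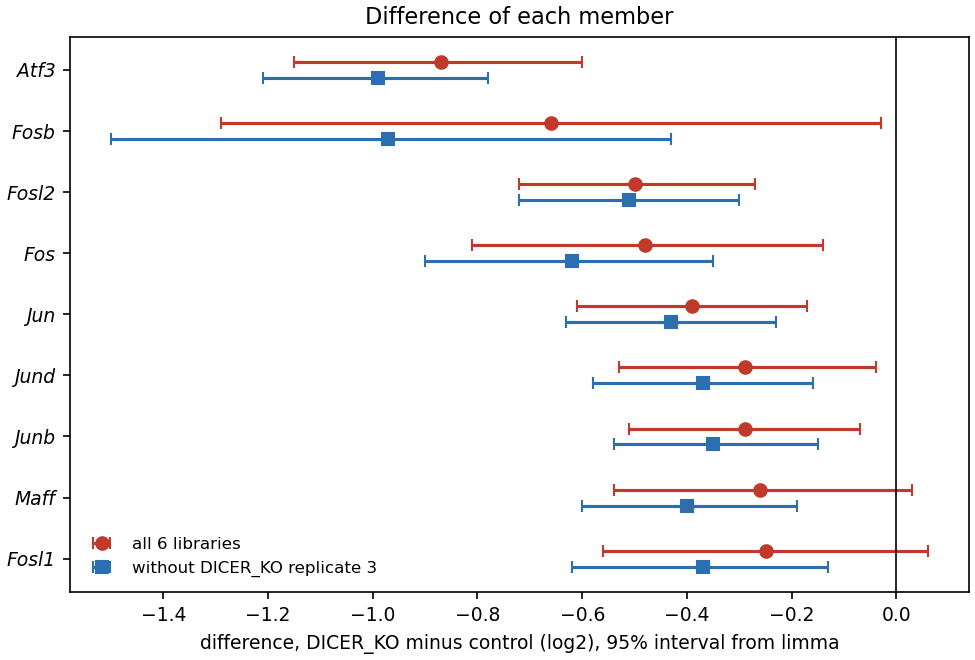
Difference of each gene, DICER_KO minus control, in log2 units, with the 95% interval from limma (not adjusted over genes), for all 6 libraries and without DICER_KO replicate 3. Every difference is below 0, and with all libraries the intervals of Maff and Fosl1 reach past 0.

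Atf3 (Entrez 11910; GRCm38 chr1:191170296-191218039, minus strand) read 6.39, 6.28 and 6.23 log2 CPM in control replicates 1 to 3 and 5.28, 5.33 and 5.68 in DICER_KO replicates 1 to 3. The groups were separated by more than the spread within either. These levels rest on 1972, 1761 and 1732 reads in controls and on 684, 978 and 2164 reads in DICER_KO. The mean went from 6.30 ± 0.08 to 5.43 ± 0.21 (SD, n = 3), and Atf3 fell by 0.87 on the log2 scale (SE 0.12, 95% interval -1.15 to -0.60, limma adjusted p = 0.0139). It ranked 20 by p among all genes tested. The call was lost without control replicate 1 (adjusted p = 0.0949), 2 (0.0722) or 3 (0.0841) and without DICER_KO replicate 2 (0.0524). It held without DICER_KO replicate 1 (0.0337) or 3 (7.91e-06), and the difference stayed between -0.99 and -0.80 in these 6 fits. The call was also lost in limma without the intensity trend (adjusted p = 0.0702) and with the replicate number as a term (0.145). Without DICER_KO replicate 3 the difference was -0.99.

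The stretch before the RefSeq start of Atf3 (GRCm38.p6, chr1:191183334-191183483, minus strand, positions -150 to -1, inside the wider GENCODE gene) is shown because cAMP acts on such promoters through CREB, which binds the cAMP response element (CRE), TGACGTCA. Capitals here and in the promoters printed later mark a CRE, its core TGACG (or the reverse complement CGTCA), or TATAAA. In Atf3 the core lies at positions -7 to -3.
Atf3: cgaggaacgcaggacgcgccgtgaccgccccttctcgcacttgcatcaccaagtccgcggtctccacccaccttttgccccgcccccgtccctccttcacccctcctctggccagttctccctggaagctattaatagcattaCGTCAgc

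Fosl2 encodes Fra-2, a Fos relative that lacks the strong C-terminal activation domain of Fos. Fosl2 (Entrez 14284; GRCm38 chr5:32135801-32157842, plus strand) read 8.19, 8.39 and 8.31 log2 CPM in controls and 7.72, 7.84 and 7.83 in DICER_KO. The groups did not overlap, and DICER_KO replicate 3 lay beside replicate 2. The difference was -0.50 (SE 0.10, limma adjusted p = 0.0718), which did not pass the threshold. Without DICER_KO replicate 3 Fosl2 fell by 0.51 (adjusted p = 0.00207), about the same size as with it.

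Fos, the prototype of the family, read 3.95, 4.03 and 3.92 log2 CPM in controls and 3.37, 3.31 and 3.79 in DICER_KO (Entrez 14281; GRCm38 chr12:85473890-85477273, plus strand). DICER_KO replicate 3 was the highest of its group and still below every control. The difference was -0.48 (SE 0.15, limma adjusted p = 0.201), and without DICER_KO replicate 3 Fos fell by 0.62 (adjusted p = 0.00324). Fosb, which encodes a close relative of Fos, was the lowest of the 9 genes: 1.24, 1.53 and 1.30 log2 CPM in controls and 0.35, 0.42 and 1.30 in DICER_KO. DICER_KO replicate 3 reached the control range while the other DICER_KO libraries lay below it. Only 22 and 32 reads stand behind the values of DICER_KO replicates 1 and 2, and 55 to 65 reads behind those of controls. For DICER_KO replicate 1 the level was 1.25 CPM with an exact 95% Poisson interval of 0.784 to 1.89 CPM, and for replicate 3 it was 2.46 CPM (2.01 to 2.98), intervals that cover counting error only. The Fosb difference was -0.66 (SE 0.28, limma adjusted p = 0.299), and Fosb fell by 0.97 without DICER_KO replicate 3 (adjusted p = 0.0139).

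Fosl1, which encodes Fra-1, had the difference nearest to 0 in the family. It read 6.05, 6.37 and 6.05 log2 CPM in controls and 5.73, 5.84 and 6.15 in DICER_KO. DICER_KO replicate 3 lay above 2 of the 3 controls. The difference was -0.25 (95% interval -0.56 to 0.06, limma adjusted p = 0.389), and it was -0.37 without DICER_KO replicate 3 (adjusted p = 0.034).

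The stretches before the starts of Fos (chr12:85473740-85473889, plus strand) and Fosb (chr7:19310046-19310195, minus strand) are shown for the same motif, from RefSeq (GRCm38.p6). Fos carries the CRE core from positions -129 and -66 and TATAAA from -33, and Fosb carries 1 core, from -60.
Fos: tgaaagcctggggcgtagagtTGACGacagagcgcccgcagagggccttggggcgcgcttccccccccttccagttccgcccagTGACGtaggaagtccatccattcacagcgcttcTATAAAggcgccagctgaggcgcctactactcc
Fosb: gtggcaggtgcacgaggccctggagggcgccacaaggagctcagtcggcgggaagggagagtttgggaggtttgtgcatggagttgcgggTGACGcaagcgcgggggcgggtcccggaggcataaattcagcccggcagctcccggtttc

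The 3 Jun genes were among the highest of the 9 and had differences of similar size. Jun, which dimerizes with itself or with Fos proteins, read 8.36, 8.39 and 8.32 log2 CPM in controls and 7.87, 7.98 and 8.04 in DICER_KO (Entrez 16476; GRCm38 chr4:95049034-95052222, minus strand). The groups did not overlap. The difference was -0.39 (SE 0.10, limma adjusted p = 0.116), and Jun fell by 0.43 without DICER_KO replicate 3 (adjusted p = 0.00482). Junb, a weaker activator than Jun in many settings, read 7.91, 7.98 and 7.89 log2 CPM in controls and 7.56, 7.59 and 7.74 in DICER_KO. Jund, the most steadily expressed Jun gene in many cells, read 8.0, 7.89 and 7.80 log2 CPM in controls and 7.48, 7.58 and 7.76 in DICER_KO. For both genes all DICER_KO libraries lay below all controls, with replicate 3 the nearest to them. Both differences were -0.29 (SE 0.10, limma adjusted p = 0.228 for Junb; SE 0.11, adjusted p = 0.265 for Jund). Without DICER_KO replicate 3 Junb fell by 0.35 (adjusted p = 0.0164) and Jund by 0.37 (adjusted p = 0.0161).

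The labels do not say whether reads were counted by strand, and exons of Fosl1, Jun, Junb and Jund overlap an exon of a gene on the other strand in GENCODE M21. Of those neighbours Prdx2, which overlaps Junb, had a value. Prdx2, a peroxidase gene, read 7.32, 7.25 and 7.15 log2 CPM in controls and 7.33, 7.28 and 7.10 in DICER_KO, a difference of 0.00 (95% interval -0.24 to 0.23). The stretch before the start of Junb (chr8:84978749-84978898, minus strand; RefSeq, GRCm38.p6) holds the CRE core from position -106, whereas the windows of Jun and Jund held none; the RefSeq start of Jund lies upstream of the GENCODE gene.
Junb: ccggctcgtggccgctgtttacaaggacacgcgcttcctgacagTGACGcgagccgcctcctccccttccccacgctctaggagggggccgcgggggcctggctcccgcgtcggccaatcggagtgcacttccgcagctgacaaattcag

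Maff (Entrez 17133; GRCm38 chr15:79346621-79359076, plus strand) read 7.51, 7.69 and 7.59 log2 CPM in controls and 7.20, 7.20 and 7.62 in DICER_KO. DICER_KO replicates 1 and 2 lay below every control and replicate 3 lay within the control range. The difference was -0.26 (SE 0.13, 95% interval -0.54 to 0.03, limma adjusted p = 0.356), and without DICER_KO replicate 3 Maff fell by 0.40 (adjusted p = 0.00892). RefSeq gives Maff 3 starts, and the stretch before one of them (chr15:79347370-79347519, plus strand, GRCm38.p6) is shown for its full CRE, at positions -29 to -22.
Maff: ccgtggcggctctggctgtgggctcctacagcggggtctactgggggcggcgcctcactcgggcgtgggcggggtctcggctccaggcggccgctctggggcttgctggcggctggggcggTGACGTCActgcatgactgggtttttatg

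Promoter windows from 250 bases before to 50 bases after the RefSeq start were found for 8 of the 9 genes, and not for Fosl1. The full CRE was in 1 of the 8 (Maff), against 3.49% of 7932 tested genes with a window. The core TGACG on either strand, which the full CRE contains, was in 5 of 8 (Fos, Fosb, Junb, Atf3 and Maff), against 34.5%. The AP-1 site TGANTCA was in 0 of 8 windows (6.69% of tested genes), the CArG box bound by serum response factor was in 0 (1.5%), and TATAAA on the gene's strand was in 2, Fos and Junb (5.55%). A gene with several starts counted once if any window held the motif. These are matches of letters in a short window and show no binding. Variant spellings and sites farther from the start were not counted, so 0 matches do not show that a promoter lacks such a site.

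Levels of different genes were compared as CPM per kilobase of the longest annotated transcript. In controls Jund stood highest at 143 ± 9.96 and Junb next at 134 ± 4.67 (SD, n = 3), and these did not separate. Jun (103 ± 2.8) and Maff (98.8 ± 6.07) also overlapped. Fosl2 followed at 48.2 ± 3.29 and was separated from both its neighbours. Atf3 at 39.8 ± 2.26 and Fosl1 at 38.4 ± 5.22 overlapped, with Fos lower at 7.42 ± 0.29 and Fosb lowest at 0.679 ± 0.0744. In DICER_KO Atf3 stood at 21.9 ± 3.37, below Fosl1 at 32.4 ± 5.06, and those libraries did not overlap. Divided by the length of all annotated exons in place of the longest transcript, Fosl2 came after Atf3 and Fosl1 in controls (32.5, 36.7 and 35.2 CPM per kilobase).

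**Figure D3:**
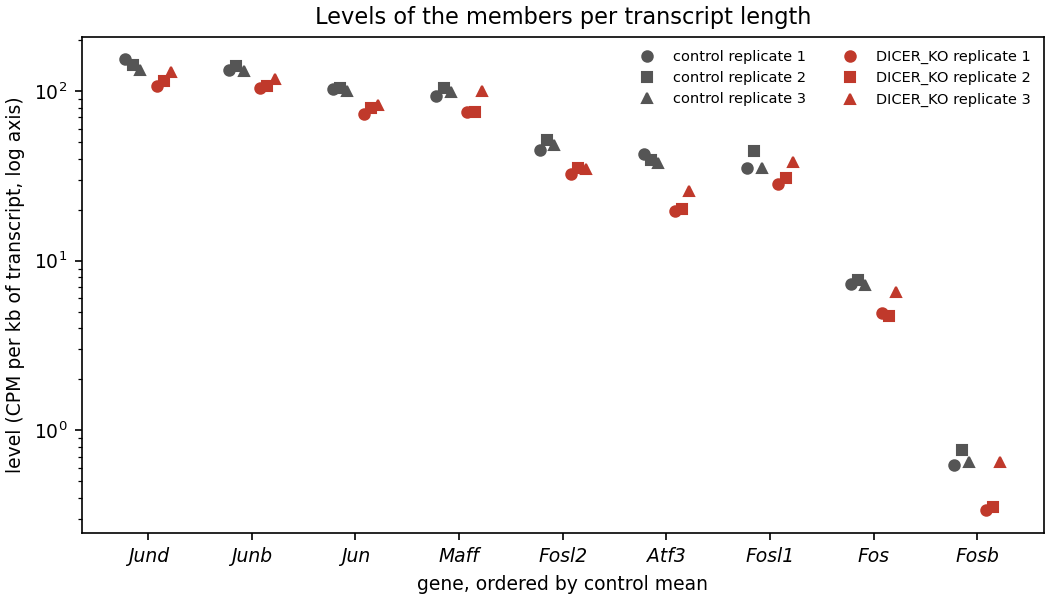
Level of each gene in CPM per kilobase of its longest transcript (log axis), with libraries as points. The Jun genes and Maff lie highest and Fosb lies lowest in both groups.

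Summed over the 9 genes, the level was 613, 636 and 593 CPM per kilobase in controls and 446, 466 and 538 in DICER_KO. All DICER_KO sums were below all control sums. Atf3 gave 6.9, 6.16 and 6.4% of that sum in controls and 4.39, 4.36 and 4.79% in DICER_KO, again without overlap. The Jun genes together gave 62.0 ± 1.38% in controls and 63.3 ± 1.52% in DICER_KO (SD, n = 3), the Fos genes 15.4 ± 1.02% and 15 ± 0.201%, and Maff 16.1 ± 0.799% and 17.2 ± 1.36%. These 3 shares differed by less than or about the spread between libraries. The log2 ratio of Fos genes to Jun genes was -2.01 ± 0.13 in controls and -2.08 ± 0.03 in DICER_KO.

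The ratio of Atf3 to each other member separated the groups, with all DICER_KO libraries lower, for 7 of 8 members, Fosb being the exception. The log2 ratio of Atf3 to Fosl1, less its control mean, was -0.59, -0.65 and -0.62 in DICER_KO replicates 1 to 3, and to Maff it was -0.62, -0.57 and -0.65. Replicate 3 lay with the other DICER_KO libraries in these 2 ratios. Against Fosl2 the ratio was -0.45, -0.51 and -0.16, with replicate 3 close to the lowest control (-0.12). Against Fosb it was -0.02, -0.03 and -0.57, with replicates 1 and 2 inside the control range of -0.20 to 0.21, so in these libraries Atf3 was not lower relative to Fosb. Atf3 was chosen for these ratios after its difference was seen, and they are given with no test.

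The 3 DICER_KO libraries were not alike. The median of the 9 differences from the control mean was -0.48 in DICER_KO replicate 1, -0.40 in replicate 2 and -0.18 in replicate 3, against 0.03, 0.04 and 0.01 over all genes tested. Of the 9 genes 8 had their highest DICER_KO value in replicate 3, Fosl2 being the exception. Among the 3 DICER_KO libraries, those with the lower AP-1 values had the higher adipocyte marker sums. The controls did not continue this order. Their marker sums lay between those of DICER_KO replicate 3 and of replicates 1 and 2, and their summed AP-1 levels were the highest. A relation between marker sums and AP-1 values was not tested.

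AU-rich elements are stretches in the 3' untranslated region (UTR) of short-lived mRNAs, and their core ATTTA is known to shorten the life of Fos and other immediate-early mRNAs. All 9 members had ATTTA in their longest GENCODE M21 3' UTR, against 69.8% of 9435 tested genes. Fos had the most per length, 4.91 per kilobase with 4 copies in 815 bases, followed by Junb (4.12), Maff (3.28), Jun (3.24) and Atf3 (2.53), against a median of 1.3 per kilobase over tested genes. The least was 0.434 per kilobase, in Fosb. Fosl2 had 1.72 per kilobase. The longer element TTATTTATT was in 3 members, against 8.47% of tested genes, and is shown in capitals in its context.
Fos: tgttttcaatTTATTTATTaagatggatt
Fosl2: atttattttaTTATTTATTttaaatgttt
Maff: ttccacactcTTATTTATTgcacgaatct

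Dicer1 is required for most mature microRNAs, so matches to microRNA seeds (bases 2 to 8) were looked up in the same 3' UTRs for 11 families (let-7, miR-7, miR-21, miR-22, miR-26, miR-27, miR-29, miR-30, miR-101, miR-103 and miR-155). MicroRNA levels were not measured. Of 99 pairs of gene and family 13 held a match (13.1%), the same share as over all tested genes (13.1%). Jun, Jund, Atf3 and Maff had none, Fosl2 had 5 families, Fos 3, Fosb and Fosl1 2 each and Junb 1, and let-7 had 0 of 9 (10.8% of tested genes). The 3' UTR of Fosl2 has 4653 bases, against a median of 1198 over tested genes. miR-101, chosen for display after the counts were seen, matched 3 members, the most of any family, against 11.6% of tested genes. Its sequence (RefSeq) is shown with the seed in capitals, and the sites in Fos, Fosl2 and Junb with the match in capitals.
mmu-miR-101a-3p: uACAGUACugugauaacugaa
Fos: ctatatccatGTACTGTagtccttcag
Fosl2: gttgttctgtGTACTGTatgtgacaca
Junb: cctctgcataGTACTGTggagaagaaa

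Genes around AP-1 were counted from 11 further lists, some of which share genes. Of 32 upstream kinases and phosphatases tested, 0 passed in limma (4 lower and 2 higher at an unadjusted p below 0.05; 0 in limma-voom), with a median difference of -0.06. The smallest p was that of Dusp1, the phosphatase that inactivates MAPKs and itself an immediate-early gene. Dusp1 read 6.54, 6.83 and 6.55 log2 CPM in controls and 5.58, 5.90 and 6.25 in DICER_KO. The difference was -0.73 (SE 0.16, limma adjusted p = 0.0869), and Dusp1 fell by 0.90 without DICER_KO replicate 3 (adjusted p = 0.000113). Of 14 transcriptional activators of these genes 0 passed in limma (2 lower and 1 higher unadjusted; 0 in limma-voom), with Atf4, the main factor of the integrated stress response, at a difference of -0.25 (adjusted p = 0.289).

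Of 26 other bZIP factors 1 fell and 0 rose in limma, where 0.288% of all genes tested fell, and their median difference was 0.03. At an unadjusted p below 0.05 in limma, 5 were lower and 1 was higher. Without DICER_KO replicate 3, 3 rose and 3 fell, in a fit in which 12.5% of genes tested rose and 7.22% fell. The gene that fell with all 6 libraries was Creb3l1, a membrane-bound factor released by cleavage. Creb3l1 read 6.78, 6.84 and 6.48 log2 CPM in controls and 6.08, 5.93 and 5.90 in DICER_KO. It fell by 0.73 (SE 0.12, limma adjusted p = 0.0358), a call that was lost without control replicate 1 (adjusted p = 0.182), 2 (0.157) or 3 (0.0786) and without DICER_KO replicate 2 (0.108). Of these 26 genes 12 had a difference below 0.

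Other immediate-early genes were mostly lower. Of 41 tested 34 had a difference below 0, 1 fell and 0 rose in limma, and the median was -0.29. Every DICER_KO library lay below every control in 16 of them, against 9.81% of all genes tested, and in 0 did every one lie above. The gene that fell was Nr4a1, an orphan nuclear receptor induced by cAMP, which read 4.85, 5.04 and 4.76 log2 CPM in controls and 3.57, 3.64 and 3.95 in DICER_KO. Nr4a1 fell by 1.16 (SE 0.14, limma adjusted p = 0.00856), and the call was lost without control replicate 2 (adjusted p = 0.0524) or 3 (0.0786). Without DICER_KO replicate 3, 21 of the 41 fell, in a fit in which 726 genes tested (7.22%) fell.

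Textbook AP-1 target genes, Fosl1 left out, showed a median difference of -0.32 over 38 tested, with 33 below 0. None (0) passed in limma (18 lower and 2 higher unadjusted, 0 in limma-voom). Without DICER_KO replicate 3, 21 fell and 1 rose, in a fit in which 7.22% of genes tested fell and 12.5% rose. The smallest p belonged to a gene that was higher in DICER_KO, the quinone reductase gene Nqo1, which NRF2 also drives. Nqo1 read 5.36, 5.19 and 5.47 log2 CPM in controls and 6.32, 5.77 and 6.24 in DICER_KO, a difference of 0.77 (SE 0.15, limma adjusted p = 0.0679). In the list of Atf3 targets and the integrated stress response 19 of 22 tested genes were below 0, with a median of -0.21, and 0 passed in limma (7 lower and 0 higher unadjusted; 0 in limma-voom). Ppp1r15a, which restores translation after stress, had the smallest p there, at a difference of -0.50 (SE 0.13, adjusted p = 0.113), and Ppp1r15a fell by 0.62 once DICER_KO replicate 3 was left out (adjusted p = 0.000615). For the factors that bind AU-rich elements or decay mRNA, 2 of 13 tested were below 0, the median was 0.11 and 0 passed in limma (0 lower and 2 higher unadjusted; 0 in limma-voom), with Cnot6l, a deadenylase subunit, at 0.35 (adjusted p = 0.268).

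**Figure D4:**
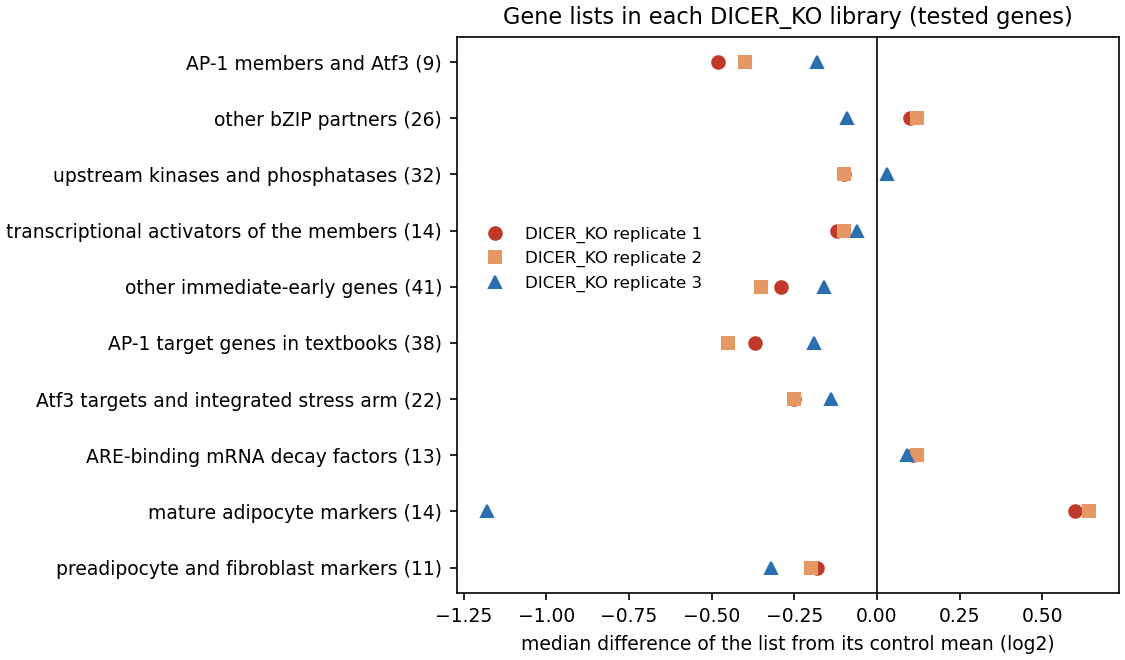
Median difference from the control mean, in log2 units, of the tested genes of each list in each DICER_KO library, with the number of genes in brackets. Lists below 0 in all 3 libraries are the AP-1 members, other immediate-early genes and AP-1 target genes. The joint list of Atf3 targets and integrated stress response genes, which include genes upstream of Atf3, is also below 0 in all 3. The transcriptional activators and the preadipocyte and fibroblast markers are below 0 in all 3 as well. The mature adipocyte markers are above 0 in replicates 1 and 2 and at -1.18 in replicate 3.

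Cell type markers moved with these results in part. Of 14 mature adipocyte markers tested, 0 passed in limma (1 lower and 0 higher unadjusted; 0 in limma-voom), with Lpl, lipoprotein lipase, at -0.68 (adjusted p = 0.28). Without DICER_KO replicate 3, 11 of the 14 rose, in a fit in which 1257 genes tested (12.5%) rose, while the 9 AP-1 members fell. Preadipocyte and fibroblast markers summed to 8300 to 9540 CPM in controls and 4810 to 5820 CPM in DICER_KO, a sum that abundant matrix genes weigh on most. The median difference of the 11 tested was -0.16 (-0.09 without DICER_KO replicate 3), and 9 of the 11 were below 0. At an unadjusted p below 0.05 in limma, 4 were lower and 0 higher. Without DICER_KO replicate 3, 4 fell, in a fit in which 7.22% of genes tested fell. Of the 11, Col1a1 was at -0.70 and Dcn at -0.81, with Pdgfra at -0.06, Pdgfrb at 0.02, Cd34 at -0.04, Ly6a at -0.05 and Dlk1 at 0.29. Those of the 11 not named here were all at or below the list median of -0.16. One of them passed, the collagen gene Col3a1, which fell by 1.44 (SE 0.17, limma adjusted p = 0.00856; 0.0786 without control replicate 3). The part of these markers in the AP-1 differences was not tested. Kdr and the preadipocyte genes other than Col3a1 were named after their values were seen. Macrophage markers with a value summed to 35.3 to 40.2 CPM in controls and 41.1 to 42.3 CPM in DICER_KO, with Lyz2, Mrc1 and Fcer1g under 1 CPM on average, and Cd68 at a difference of 0.39 (adjusted p = 0.163). Endothelial markers summed to 5.54 to 6.41 CPM in controls and 6.85 to 8.88 CPM in DICER_KO, with Pecam1, Cdh5, Kdr and Vwf under 1 CPM on average. The tested ones went opposite ways: Tek, an angiopoietin receptor gene, was at a difference of 0.67 (limma adjusted p = 0.118) and Kdr, a VEGF receptor gene, at -1.39 (adjusted p = 0.319), on 2 to 44 reads per library. Tek rose by 0.68 (adjusted p = 0.0194) and Kdr fell by 2.07 (adjusted p = 0.013) when DICER_KO replicate 3 was left out. Of these 2 lists 4 and 2 genes were tested, and 0 passed in limma (0 lower and 2 higher, and 0 lower and 1 higher, unadjusted; 0 in limma-voom).

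Genes outside the 9 whose pattern was most like that of Atf3, Fos or Junb were ranked by Pearson correlation of log2 CPM over the 6 libraries, which share the group difference. For Atf3 they were Ccdc97 (r = 0.997), Fam131b (0.997) and Bdkrb1 (0.996). Adora2b, the adenosine A2B receptor gene, was closest to Fos (r = 0.999), ahead of Cdr2 (0.993) and Nt5dc3 (0.992). Junb was followed most closely by Ier2, itself an immediate-early gene (r = 0.997), then Ndufa4l2 (0.996) and Trp53i13 (0.995). With 6 libraries such values are common: 339, 566 and 525 genes had r above 0.9 with Atf3, Fos and Junb.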

How the data were processed

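Poly(A) RNA of 6 cultures was sequenced, and the authors deposited log2 CPM values in 1 column per library. Tools named in the submitters' processing notes are HISAT2, featureCounts, edgeR, Trimmomatic and FastQC, with GRCm38 and mm10 as builds; versions are not given in the sources used here. The deposited log2 values equal log2 of (reads + 0.5) over a library size, and 100% of values gave whole reads at a tolerance of 0.01, with sizes of 17594568 to 42331787 that may be scaled. Reads on the 13734 genes were 71.5 to 77.1% of these sizes. Of the IDs, 13682 matched a symbol and 52 did not.

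Genes reaching 1 CPM in 3 or more libraries entered a limma 3.58.1 fit with an intensity trend (R 4.3.3), with group as the only term. Differences are DICER_KO minus control in log2 CPM, which understates changes of low genes, and p-values were adjusted by Benjamini-Hochberg across the 10054 genes, with a threshold of 0.05. The members and lists were chosen with earlier results of these data known. Lists take textbook genes, of which 240 of 294 entries had a value. Named are the members, Dicer1, up to 2 genes past the threshold in each direction per list (else the one of smallest p), and the 3 genes most like Atf3, Fos and Junb. Alternatives changed filter, pseudocount, scaling, test, replicate term and libraries. Motifs were counted in RefSeq promoters (GRCm38.p6) and GENCODE M21 3' UTRs (GRCm38), the longest per gene. Other steps used pandas 2.3.3, numpy 2.4.6, matplotlib 3.10.9 and scipy 1.17.1 under Python 3.11.15.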

Additional observations from a re-analysis of the deposited data

How the results depend on the processing

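All 9 members kept a difference below 0 under every alternative run. The number of genes past the threshold was 44 with all libraries, and Atf3 was the 1 member among them. It stayed between 31 and 56 genes, with Atf3 the 1 member, under no filter, a 5 CPM filter (8 members tested, without Fosb), log2(CPM + 1), quantile or median scaling and limma-voom. Without the intensity trend limma called 19 genes and 0 members (7 members and 1440 genes at an unadjusted p below 0.05). With the replicate number as a term (replicate block) it called 2 genes and 0 members (6 members and 1434 genes unadjusted, Atf3 adjusted p = 0.145). Deviations of same-numbered libraries from their group means had correlations of 0.195, -0.0142 and -0.0786, against -0.227 to 0.166 for libraries of unlike number. With 3 libraries per group this cannot decide whether the numbers pair the samples. The main fit does not take them as pairs. Leaving out 1 library gave 1 to 1983 genes and 0 to 9 members: 0 members without any 1 control or without DICER_KO replicate 2, and 9 without DICER_KO replicate 3. The cause was not tested. Per kilobase of all exons, 6 of 9 control levels moved by more than their SD. Depth limits Fosb, which had 22 reads in DICER_KO replicate 1.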
